A study of Schizosaccharomyces pombe with 36 samples.

Results

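The 8 genes described here are fission yeast targets of MBF, the transcription factor that drives expression at the passage from G1 into S phase. They were taken by systematic identifier from the count tables, and all 8 were found among the 7268 S. pombe genes counted. They are cdc22 (SPAC1F7.05), cdc18 (SPBC14C8.07c), cdt1 (SPBC428.18), cig2 (SPAPB2B4.03), mik1 (SPBC660.14), cdt2 (SPAC17H9.19c), yox1 (SPBC21B10.13c) and nrm1 (SPBC16A3.07c). The rule that lists them uses no measured value, although it was written with earlier results of these data known, and all 8 passed the filter on low counts in every test.

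MBF is built from Cdc10 with Res1 and Res2, and it binds the MCB element, a short DNA sequence that contains the cutting site of the enzyme MluI. Its targets supply deoxynucleotides, license replication origins and set cyclin-dependent kinase activity, and their mRNAs rise and fall once in each cell cycle. The homeodomain protein Yox1 and the corepressor Nrm1 are both made from MBF targets and switch MBF off again, which closes a negative feedback loop.

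The study compared cells in which slr1 was knocked out (strain yMAB001) with WT cells (strain yAS99), with 3 cultures of each, every one started from a single colony in YES, a rich yeast medium. Slr1 is the fission yeast homologue of LARP1, an RNA-binding protein of the La-related family. All cultures were given 4-thiouracil (4tU), a uracil analogue that is built into new RNA and can be biotinylated and pulled down on streptavidin. Each culture gave 6 libraries, namely 1 of steady-state RNA and 5 of labelled RNA from time points named 5, 20, 50, 105 and 125, for 36 libraries in all. The sources used here name no unit for them, and they are called labelled 5 to labelled 125 below. Nothing in the labels speaks of synchronised cells, so a culture is taken as a mixture of cell cycle stages, in which more cells at G1/S and more RNA per cell at that stage cannot be told apart.

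The libraries held 921427 to 6517092 S. pombe counts, with a median of 2999282. slr1 itself was at 3.26 to 25.9 CPM (S. pombe counts per 1000000 in a library, after TMM scaling) in knockout libraries, against 111 to 249 CPM in WT libraries. Each table also counts human and fly genes, for a purpose the labels do not state. At steady state the fly count per human count split the cultures into a set at 0.990 to 1.07 (WT cultures 1 and 2 and knockout culture 2, called set A) and a set at 1.85 to 2.15 (WT culture 3 and knockout cultures 1 and 3, called set B). Values within each set are given where a result depends on them. The members themselves had 24 to 6020 counts per library, with the lowest median for yox1, at 115.5 counts, and the highest for cdc22, at 2092.5 counts.

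The sequences before the annotated starts of 5 members are shown because these are the genes that passed a test between labelled and steady-state RNA below without the culture as a block. Each is the 250 bases upstream of the gene's start in RefSeq assembly ASM294v3, written 5′ to 3′ on the gene's own strand. Capitals mark every stretch that reads ACGCG on either strand (so also CGCGT), the core of the MCB element.
cdc18: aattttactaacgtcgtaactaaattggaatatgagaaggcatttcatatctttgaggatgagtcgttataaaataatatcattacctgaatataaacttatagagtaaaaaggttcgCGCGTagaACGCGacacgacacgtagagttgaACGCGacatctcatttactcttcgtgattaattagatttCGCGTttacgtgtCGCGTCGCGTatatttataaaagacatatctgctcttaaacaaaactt
cdt1: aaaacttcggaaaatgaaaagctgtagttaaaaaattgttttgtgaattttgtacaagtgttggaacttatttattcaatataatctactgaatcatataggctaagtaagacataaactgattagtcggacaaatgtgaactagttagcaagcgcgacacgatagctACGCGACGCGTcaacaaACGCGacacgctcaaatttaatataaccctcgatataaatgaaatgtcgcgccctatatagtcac
cig2: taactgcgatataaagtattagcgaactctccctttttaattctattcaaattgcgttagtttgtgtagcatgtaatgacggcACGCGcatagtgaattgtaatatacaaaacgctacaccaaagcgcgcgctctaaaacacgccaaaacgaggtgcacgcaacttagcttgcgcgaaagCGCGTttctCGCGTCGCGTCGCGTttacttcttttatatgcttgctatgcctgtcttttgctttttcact
cdt2: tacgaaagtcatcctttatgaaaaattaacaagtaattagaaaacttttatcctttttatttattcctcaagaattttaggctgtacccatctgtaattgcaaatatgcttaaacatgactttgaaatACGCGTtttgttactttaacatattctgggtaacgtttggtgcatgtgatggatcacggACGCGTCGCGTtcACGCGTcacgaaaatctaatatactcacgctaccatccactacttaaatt
nrm1: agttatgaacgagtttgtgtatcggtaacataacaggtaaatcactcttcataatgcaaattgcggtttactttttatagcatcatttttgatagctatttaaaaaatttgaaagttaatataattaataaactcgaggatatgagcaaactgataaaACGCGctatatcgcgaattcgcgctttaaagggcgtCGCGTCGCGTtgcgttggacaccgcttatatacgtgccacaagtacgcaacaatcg
The windows lie at II:2217985-2218234 (minus strand) for cdc18, II:477142-477391 (plus strand) for cdt1, I:2709532-2709781 (plus strand) for cig2, I:2035705-2035954 (minus strand) for cdt2 and II:4285694-4285943 (plus strand) for nrm1. The sources used here do not give the build behind the counts, so these coordinates belong to the RefSeq assembly alone.

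The full palindrome ACGCGT was present in the windows of 4 of the 8 members, against 2.64% of the 5112 protein-coding windows of the same length. It occurred 3 times before cdt2, with its first base 122, 63 and 50 bases ahead of the start, 2 times before cdc22, at 62 and 52 bases, and once each before cdt1, at 77 bases, and yox1, at 57 bases. Its 5-base core ACGCG, read on either strand and overlapping the palindrome, was present in 7 of 8 windows, against 9.47% of all protein-coding windows. In cdc18, cig2 and nrm1 the core was there without the palindrome. The window of mik1 was the one with neither, which says only that these letters are not in those 250 bases.

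cdc22 was by far the most abundant member. Its product is the large subunit of ribonucleotide reductase, the enzyme that makes deoxynucleotides. Levels of different genes can be compared only per length, and here the order depends on which length is used. Per kilobase of coding sequence, cdc22 averaged 226 ± 51.6 CPM in knockout and 238 ± 147 CPM in WT steady-state RNA (SD, n = 3 each, also for the levels that follow). On that scale nrm1 was at 106 ± 6.85 and 92.1 ± 20.4 CPM in knockout and WT, yox1 at 98.4 ± 24.8 and 65.8 ± 2.87, and cig2 at 97.7 ± 5.29 and 82.9 ± 17.3, which among themselves did not differ beyond the spread in the knockout. The remaining 4 lay lower and close together, between 26.1 and 34.7 CPM in the knockout and between 21.3 and 27.0 in WT. In RefSeq, however, 3145 of the 4381 bases of cig2 and 1611 of the 2640 bases of nrm1 lie outside the coding sequence, against 3 of 609 for yox1. Per kilobase of the whole annotated gene, cdc22 was still the highest, at 182 ± 41.7 CPM in the knockout and 192 ± 119 in WT. yox1 then followed, at 98.0 ± 24.7 and 65.5 ± 2.85 CPM, above nrm1, at 41.2 ± 2.67 and 35.9 ± 7.97, and cig2, at 27.6 ± 1.49 and 23.4 ± 4.89. On this scale cig2 no longer stood above cdt1, which was at 32.7 ± 6.47 CPM in the knockout and 23.8 ± 5.44 in WT. In labelled 5, on the whole-gene scale, yox1 (56.7 ± 15.3 in the knockout and 57.3 ± 4.67 in WT), nrm1 (50.4 ± 7.0485 and 55.5 ± 12.01) and cig2 (49.8 ± 8.79 and 42.0 ± 13.7) did not differ beyond the spread between neighbours.

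**Figure D1:**
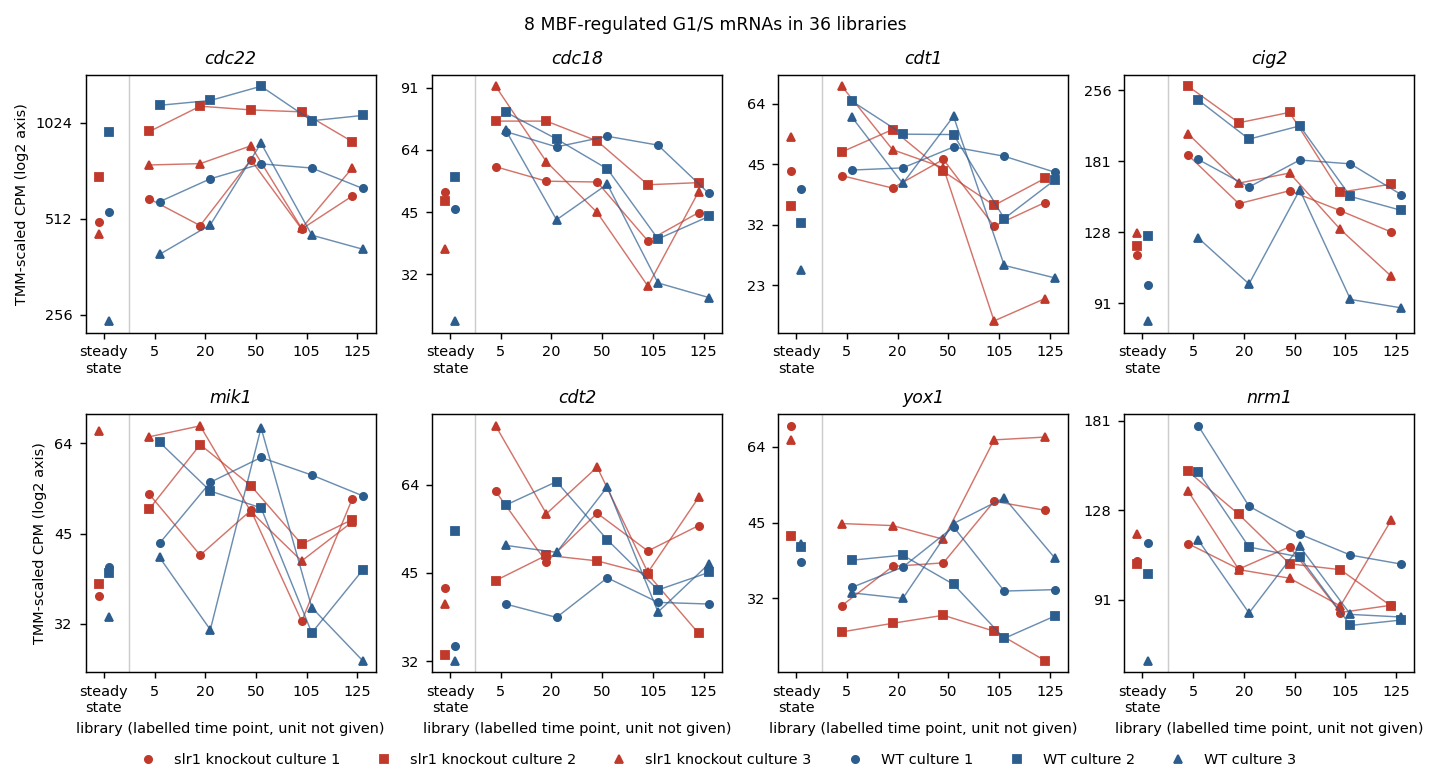
Levels of the 8 members in every library, as TMM-scaled CPM on a log2 axis, with slr1 knockout cultures in red, placed left of WT cultures in blue, steady state at the left of each panel and the labelled time points joined by lines. cdc18 and nrm1 were highest among the labelled libraries at labelled 5 in 6 of 6 cultures, cdc22 was highest at labelled 50 in 5 of 6, and yox1 was never highest at labelled 5.

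Labelled 5 RNA, the earliest pull-down, was first compared with steady-state RNA of the same genotype. The question was which of the 8 mRNAs had a larger share in labelled 5 than at steady state. Steady-state RNA is another preparation than pulled-down RNA, so RNA age and preparation cannot be told apart in any comparison of labelled with steady-state RNA. The percentage of reads without a unique alignment was higher in every steady-state library than in any labelled one. What the preparation adds to the fold changes was not tested. Most members had a larger share in labelled 5, while yox1 had a smaller one in each of the 6 cultures. Without the culture as a block, cig2 was called higher in both genotypes, cdt2 in the knockout, and cdc18, cdt1 and nrm1 in WT. A call in the knockout alone or in WT alone is not a difference between genotypes. That difference had its own test, which called 0 of 8 members. edgeR's quasi-likelihood test with Benjamini-Hochberg adjustment over 5823 genes called 2 of 8 members higher in the knockout and 4 of 8 in WT. Of all genes tested, 26.7% were called in the knockout and 21.8% in WT (13.5% and 10.6% higher). All values here are shares of the S. pombe counts of a library.

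The cultures pair the libraries, since the 6 libraries of a culture come from the same cells and their deviations from the group means were correlated at 0.149 to 0.855 in the knockout (median 0.543) and 0.464 to 0.912 in WT (median 0.724). Libraries of different cultures were correlated at -0.722 to 0.584 in the knockout (median -0.452) and -0.651 to 0.0542 in WT (median -0.432). Deviations from a group mean cancel out within the group, so these negative medians follow from the centring and add nothing to the case for pairing. With the culture as a block, 5 of 8 members were called in the knockout (4 higher and 1 lower) and the same 4 as before in WT. The block also raised the share of all genes called, to 54.1% in the knockout and 52.9% in WT. The members' blocked counts in either direction stand near that background. Called higher were 4 of 8 members in each genotype, beside 29.6% and 28.5% of all genes. The median over the 8 members was 0.39 in the knockout and 0.51 in WT on the log2 scale, against 0.04 and 0.06 over all genes tested. Both fits are therefore given below for each call.

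cdc18 was higher in labelled 5 in each of the 6 cultures, by 0.21 to 1.31 in the knockout and 0.52 to 1.53 in WT on the log2 scale. Cdc18 is the fission yeast counterpart of Cdc6 and loads the replicative helicase onto origins together with Cdt1. In the knockout cdc18 had 58.3, 75.2 and 91.3 CPM in labelled 5 of cultures 1 to 3, against 50.5, 48.3 and 36.8 CPM at steady state. WT libraries had 70.9, 79.0 and 71.4 CPM in labelled 5, against 46.1, 54.9 and 24.7 CPM at steady state. The ranges did not overlap in either genotype. Its log2 fold change was 0.72 (SE 0.28, adjusted p = 0.0598) in the knockout and 0.79 (SE 0.28, adjusted p = 0.0424) in WT. Blocked, these became 0.71 (adjusted p = 0.00545) and 0.82 (adjusted p = 0.00104). Without knockout culture 3 the blocked call in the knockout was lost (adjusted p = 0.122), whereas the blocked WT call was kept without any 1 culture, with adjusted p at most 0.0350. Without the block the WT call was lost when WT culture 1, 2 or 3 (adjusted p = 0.0674, 0.0764 and 0.205) or knockout culture 1 or 3 (0.0715 and 0.0525) was left out.

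cdt1, whose product brings the helicase to Cdc18-bound origins, was at 42.4, 48.6 and 70.7 CPM in labelled 5 of the knockout, against 43.4, 35.6 and 53.0 CPM at steady state, and these ranges overlapped. In WT it was at 43.8, 64.9 and 59.2 CPM in labelled 5, against 39.3, 32.2 and 24.7 CPM at steady state, with no overlap. The log2 fold change was 0.30 (SE 0.28, adjusted p = 0.453) in the knockout and 0.78 (SE 0.28, adjusted p = 0.0450) in WT. The WT call rested on WT cultures 2 and 3, since without them the blocked adjusted p was 0.122 and 0.0918, and the unblocked one 0.245 and 0.256. Leaving out knockout culture 1 also ended the unblocked call (adjusted p = 0.0798). The difference between genotypes in this fold change was -0.48 (95% confidence interval -1.29 to 0.33), and it did not pass its own test.

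cdc22 had 591, 962 and 755 CPM in labelled 5 of the knockout, against 499, 694 and 459 CPM at steady state. The WT cultures had 580, 1162 and 396 CPM in labelled 5, against 537, 959 and 245 CPM at steady state. Every culture was higher in labelled 5, yet the groups overlapped because the cultures themselves were so far apart. Its log2 fold change was 0.48 (95% confidence interval -0.47 to 1.44) in the knockout and 0.29 (-0.66 to 1.24) in WT. With the culture as a block the knockout value was 0.47 (adjusted p = 0.0369) and the WT value 0.32 (adjusted p = 0.150). The knockout call was lost without WT culture 1 (adjusted p = 0.0746) and without knockout culture 1, 2 or 3 (0.0571, 0.0785 and 0.217).

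cig2 encodes a B-type cyclin that helps to start S phase and itself feeds back on MBF. It had 187, 261 and 207 CPM in labelled 5 of the knockout, against 115, 120 and 128 CPM at steady state, with a wide gap between the ranges. The WT cultures had 183, 244 and 124.55 CPM in labelled 5, against 98.8, 125.48 and 83.1 CPM at steady state, where labelled 5 of culture 3 lay just inside the steady-state range. cig2 rose in both genotypes, with a log2 fold change of 0.86 (SE 0.28, adjusted p = 0.0218) in the knockout and 0.84 (SE 0.27, adjusted p = 0.0282) in WT. Of all genes tested, 93.6% in the knockout and 94.7% in WT had a lower fold change. Blocked adjusted p-values were 1.57e-05 and 1.63e-05, and without any 1 culture they stayed at or below 0.00181 and 0.00167.

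Without the block the knockout call of cig2 was lost when knockout culture 1, 2 or 3 was left out (adjusted p = 0.121, 0.128 and 0.106), and the WT call without WT culture 1 or 2 or knockout culture 1 (0.127, 0.116 and 0.0527). The cig2 gene overlaps the antisense gene pmc1 over 1459 bases in RefSeq, and pmc1 took 27735 counts over the 36 libraries, against 20332 for cig2. pmc1 averaged 257 ± 111 CPM in labelled 5 and 155 ± 39.2 CPM at steady state in the knockout, and 234 ± 90.2 and 142 ± 31.9 CPM in WT (SD, n = 3 each). The kit marks strand, but the labels do not give the strand setting of the counting. How reads from the shared bases were assigned or left out is therefore not known, and their part in these values was not tested.

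mik1 encodes a Wee1-like kinase that phosphorylates and holds back Cdc2. In the knockout it had 52.6, 49.8 and 65.6 CPM in labelled 5, against 35.6, 37.3 and 67.1 CPM at steady state. For WT these were 43.6, 64.2 and 41.3 CPM in labelled 5, against 39.8, 39.0 and 32.9 CPM at steady state. Labelled 5 lay above steady state in 5 of the 6 cultures, the exception being knockout culture 3, and the WT ranges did not overlap. Neither fit called it, at a log2 fold change of 0.28 (95% confidence interval -0.28 to 0.84) in the knockout and 0.41 (-0.15 to 0.96) in WT.

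cdt2 encodes the substrate receptor of a Cul4 ubiquitin ligase that removes Cdt1 and the ribonucleotide reductase inhibitor Spd1. It had 62.4, 43.9 and 80.6 CPM in labelled 5 of the knockout, against 42.7, 32.7 and 40.0 CPM at steady state, and the ranges did not overlap. WT cultures had 40.1, 59.1 and 50.4 CPM in labelled 5, against 34.0, 53.3 and 32.1 CPM at steady state, and these did. cdt2 rose in the knockout, with a log2 fold change of 0.69 (SE 0.24, adjusted p = 0.0342; blocked 0.65, adjusted p = 0.00304), and it was at 0.31 in WT (SE 0.24, adjusted p = 0.362). Without knockout culture 3 the blocked knockout call was lost (adjusted p = 0.0648). Without the block it was also lost without WT culture 1 or 3 (0.0512 and 0.0515) or knockout culture 1 or 3 (0.160 and 0.299).

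nrm1 and yox1 encode the MBF-repressing pair. nrm1 had 112, 149 and 138 CPM in labelled 5 of the knockout, against 105, 104 and 117 CPM at steady state, with some overlap. WT values were 177, 148 and 114 CPM in labelled 5, against 113, 99.9 and 71.6 CPM at steady state, without overlap. nrm1 rose in WT, by 0.62 on the log2 scale (SE 0.18, adjusted p = 0.0158; blocked 0.61, adjusted p = 0.000256), and in the knockout was at 0.29 (SE 0.18, adjusted p = 0.242; blocked adjusted p = 0.0631). The blocked WT call was kept without any 1 culture (adjusted p at most 0.0171). Without the block it was lost without WT culture 1, 2 or 3 (0.0583, 0.0757 and 0.0527). In RefSeq nrm1 overlaps the antisense gene tad1 over 1442 bases, with 3441 counts for tad1 against 13615 for nrm1.

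yox1 was the one member that was lower in labelled 5 in all 6 cultures. It had 31.0, 27.5 and 45.1 CPM in labelled 5 of the knockout, against 70.5, 42.5 and 66.0 CPM at steady state. In WT it had 33.7, 38.1 and 32.8 CPM in labelled 5, against 37.9, 40.6 and 41.1 CPM at steady state. The log2 ratios per culture were -1.19, -0.63 and -0.55 in the knockout and -0.17, -0.09 and -0.33 in WT. The fitted log2 fold change was -0.79 (SE 0.31, adjusted p = 0.0581) in the knockout and -0.19 (SE 0.31, adjusted p = 0.691) in WT. With the culture as a block the knockout value was called, at -0.78 (adjusted p = 0.00122, or 0.0592 without knockout culture 1), against a background of 24.4% of genes called lower.

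**Figure D2:**
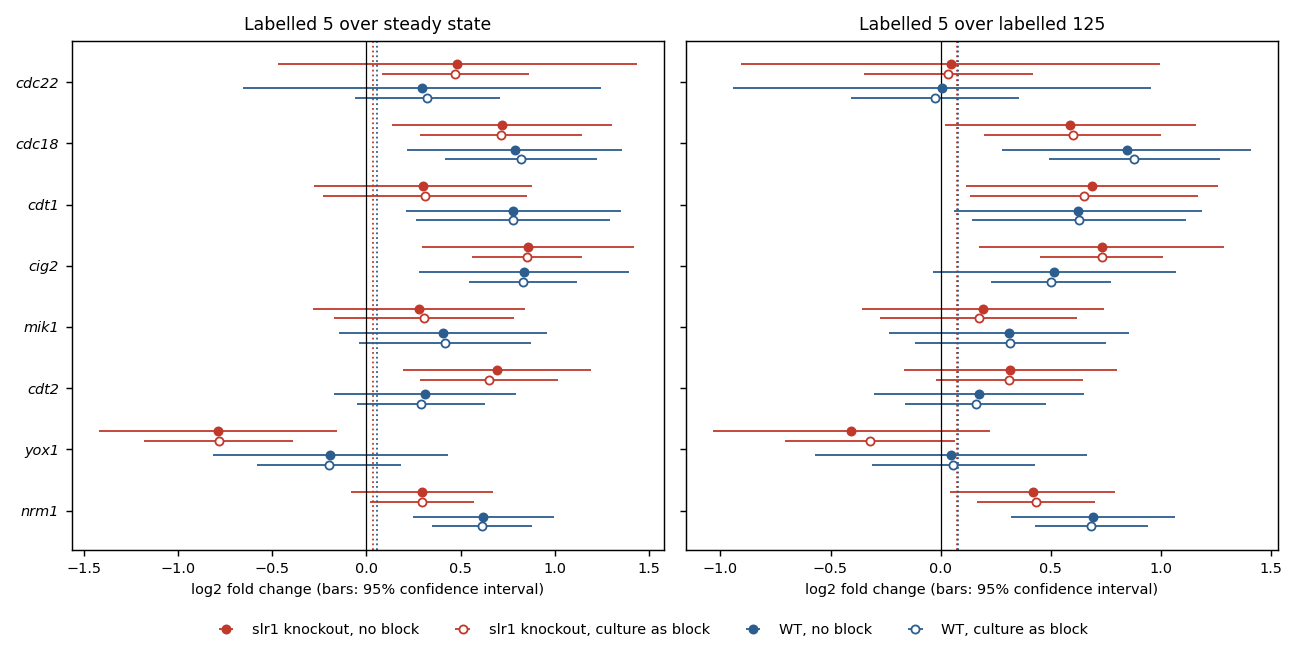
Log2 fold changes of the 8 members in labelled 5 over steady state (left) and over labelled 125 (right), with the slr1 knockout in red above WT in blue, filled points without and open points with the culture as a block. Bars are 95% confidence intervals and dotted lines the medians over all genes tested. The block narrowed the bars most for cdc22, and yox1 was the one member below 0 in labelled 5 over steady state.

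**Figure D3:**
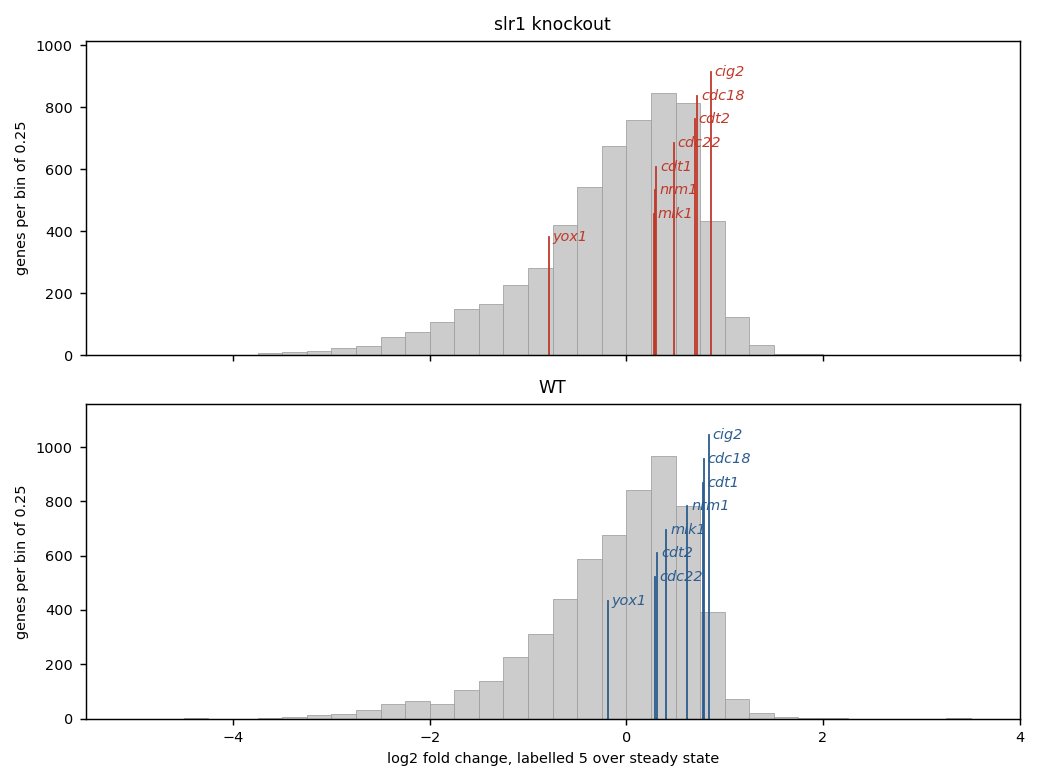
Numbers of genes per bin of log2 fold change, labelled 5 over steady state, in the slr1 knockout (top) and in WT (bottom), over all 5823 genes tested, with the 8 members marked by lines. cig2 had the highest value of the 8 in both genotypes, at 0.86 and 0.84, and yox1 the lowest, at -0.79 and -0.19.

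Within the culture sets, the set A values rest on 1 knockout culture and 2 WT cultures, and the set B values on 2 knockout cultures and 1 WT culture. In the knockout, cig2 was at 1.14 within set A and 0.65 within set B on the log2 scale (adjusted p = 0.327 and 0.00757). In WT it was at 0.94 and 0.51 (adjusted p = 0.0477 and 0.171). The other calls kept their direction in both sets, with WT cdc18 at 0.58 within set A and 1.45 within set B, and yox1 in the knockout at -0.61 and -0.90.

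Scaling moved the zero line. Scaled to human counts in place of S. pombe counts, the median of all genes in labelled 5 over steady state was 0.10 in the knockout and -0.61 in WT. nrm1 in WT then turned to -0.14 on the log2 scale, and cdc18, cdt1 and cig2 in WT to 0.11, 0.09 and 0.09. Relative to the median of all genes the 4 stayed higher, at 0.47, 0.71, 0.70 and 0.69. In the knockout cig2 and cdt2 were 0.80 and 0.65 above the median and yox1 was at -0.87 relative to it.

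The labelled time points were compared next, which asks how the share of each mRNA changed as the labelled pool aged. Labelled 5 over labelled 125 called 0 of 8 members in the knockout, where 8.48% of all genes were called, and nrm1 alone in WT, where 8.76% were (2.08% higher). At an unadjusted p below 0.05 there were 4 members in the knockout, beside 1324 of the 5823 genes tested. DESeq2 called 0 of these members in the knockout, beside 11% of all genes. With the culture as a block, cdc18, cdt1, cig2 and nrm1 were higher in labelled 5 in both genotypes, beside 37.1% of all genes called in the knockout and 40% in WT (19.7% and 19.8% higher). The other 4 members were not called in either genotype. Under human scaling the median of all genes was -0.64 in the knockout and -0.95 in WT, and all 4 were below 0 but above that median in both genotypes.

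nrm1 had 112, 149 and 138 CPM in labelled 5 and 88.6, 88.4 and 123 CPM in labelled 125 of the knockout. WT had 177, 148 and 114 CPM in labelled 5, against 104, 83.7 and 84.7 CPM in labelled 125, with no overlap. The log2 fold change of nrm1 was 0.42 (SE 0.18, adjusted p = 0.162; blocked 0.43, adjusted p = 0.0103) in the knockout and 0.69 (SE 0.18, adjusted p = 0.0141; blocked 0.68, adjusted p = 8.35e-05) in WT. Without knockout culture 2 the blocked knockout call was lost (adjusted p = 0.235). The WT call was lost without WT culture 1 or 2 only when unblocked (0.0535 and 0.151), and under human scaling its value turned to -0.43, which is 0.53 above the median of all genes.

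cdc18 had a smaller share in labelled 125 of every culture, with 45.1, 53.3 and 50.7 CPM in labelled 125 of the knockout and 50.2, 44.2 and 28.1 CPM in WT, below all labelled 5 values of the same genotype. Its log2 value was 0.59 in the knockout (SE 0.28, adjusted p = 0.202; blocked 0.60, adjusted p = 0.0178) and 0.84 in WT (SE 0.28, adjusted p = 0.0534; blocked 0.88, adjusted p = 0.000510). The blocked knockout call was lost without knockout culture 2 or 3 (adjusted p = 0.0577 and 0.130). cig2 had 128, 162 and 103 CPM in labelled 125 of the knockout and 154, 143 and 88.6 CPM in WT. Its blocked log2 value was 0.73 in the knockout (adjusted p = 0.000122, and at most 0.00696 without any 1 culture) and 0.50 in WT (adjusted p = 0.00361, or 0.115 without WT culture 2).

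For cdt1 the ratio of labelled 5 to labelled 125 varied widely between cultures. Labelled 125 had 36.3, 41.7 and 20.96 CPM in the knockout and 43.2, 41.4 and 23.6 CPM in WT, so that culture 3 was low in both genotypes. Per culture, labelled 5 over labelled 125 was 0.22, 0.22 and 1.75 on the log2 scale in the knockout and 0.02, 0.65 and 1.33 in WT. Its blocked calls (0.65, adjusted p = 0.0444 in the knockout and 0.63, adjusted p = 0.0358 in WT) were lost without knockout culture 3 (0.558), knockout culture 1 (0.0503) or WT culture 2 (0.0702) in the knockout, and without WT culture 2 or 3 (0.151 and 0.333) in WT.

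cdc22 did not peak at labelled 5. Its mean was 315.9, 329, 380, 282 and 306 CPM per kilobase from labelled 5 to labelled 125 in the knockout and 292, 325, 407, 306 and 291 in WT. Labelled 50 was its highest labelled library in 5 of 6 cultures, the exception being knockout culture 2, at labelled 20. For labelled 5 over labelled 125 without the block it was at 0.05 in the knockout (95% confidence interval -0.91 to 0.995) and 0.01 in WT (-0.94 to 0.95). Those intervals hold the spread between cultures. Per culture the log2 ratios of cdc22 were -0.03, 0.11 and 0.03 in the knockout and -0.14, 0.11 and -0.05 in WT. The peaks of cdt1, mik1 and cdt2 were spread over labelled 5, 20 and 50, with 2, 2 and 2 cultures each for mik1 and for cdt2. yox1 was highest at labelled 105 in 2 cultures, at 125 in 1, at 50 in 2 and at 20 in 1.

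A test over all 5 labelled time points together called 0 of 8 members in either genotype, where 5.2% of all genes were called in the knockout and 5.51% in WT. In each genotype 2 members had an unadjusted p below 0.05, beside 966 of all 5823 genes in the knockout and 944 in WT. DESeq2 called 0 in the knockout and 1 in WT, beside 8.59% and 9.67% of all genes. With the culture as a block, cdc18, cdt1, cig2 and nrm1 were called in the knockout (adjusted p = 0.00968, 0.0460, 0.000562 and 0.0157; 36.8% of all genes). In WT cdc22, cdc18, cig2 and nrm1 were called (0.0391, 0.00248, 0.00485 and 0.000269; 41.5% of all genes). mik1, cdt2 and yox1 were not called in any of these. Of the blocked calls, cig2 in the knockout and nrm1 in WT were kept without any 1 culture. In the knockout, cdc18 was lost without knockout culture 3 (adjusted p = 0.184), nrm1 without knockout culture 2 (0.121), and cdt1 without WT culture 2 (0.0909) or knockout culture 1 or 3 (0.0756 and 0.525). In WT, cdc18 was lost without WT culture 3 (0.088), cig2 without WT culture 2 or 3 (0.106 and 0.0787), and cdc22 without WT culture 2 or 3 (0.0633 and 0.702) or knockout culture 1 (0.0528). Without WT culture 1, mik1 was called in WT (0.0325).

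Labelled 125 was also compared with steady state, again across different preparations. The test called 0 of 8 in both genotypes, with or without the block, where 1.2% of all genes were called in the knockout and 0.567% in WT without it (23.7% and 13.4% with it). No member had an unadjusted p below 0.05, and DESeq2 called 0. The log2 fold changes ran from -0.38 to 0.44 in the knockout and from -0.24 to 0.32 in WT, with medians of 0.11 and 0.12. Without the block the widest intervals were those of cdc22, -0.52 to 1.39 in the knockout and -0.66 to 1.24 in WT. That fit counts the spread between cultures as error, and it could not show differences of that size. cdc22 was higher in labelled 125 than at steady state in 6 of 6 cultures, by a mean of 0.44 ± 0.22 in the knockout and 0.39 ± 0.31 in WT on the log2 scale (SD, n = 3 each), close to its values for labelled 5. yox1 was lower in 2 of 3 knockout cultures and in 3 of 3 WT cultures.

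The knockout was then set against WT in each kind of library, which asks whether loss of slr1 changes these mRNAs. No member was called in any of the 6 comparisons. Over all genes the test called slr1 alone, 0.0186% of the genes tested at steady state and 0.0172% in each labelled comparison. The 48 values of the 8 members lay between -0.26 and 0.60 on the log2 scale, with 32 above 0 and standard errors from 0.17 to 0.44. DESeq2 called 0 members in each. At an unadjusted p below 0.05 edgeR had 1 member, yox1 at steady state, beside 18 of all 5371 genes. In the labelled comparisons 45 to 163 of 5812 genes were below it. Those are fewer genes than a threshold of 0.05 lets through with no effect at all, so these tests were cautious and their empty result says little. With the culture set as a covariate the counts were 52 at steady state and 121 to 383 in labelled RNA.

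yox1 at steady state had 70.5, 42.5 and 66.0 CPM in the knockout, against 37.9, 40.6 and 41.1 CPM in WT, so that all 3 knockout libraries lay above all WT libraries, knockout culture 2 by little. The 2 higher knockout libraries belong to set B and the lower one to set A, and 2 of the 3 WT libraries belong to set A. With the culture set as a covariate the log2 fold change was 0.42 (SE 0.22, unadjusted p = 0.0959 by edgeR), against 0.12 in a fit of set A alone (adjusted p = 1) and 0.73 in one of set B alone (adjusted p = 0.437). Over all cultures, its log2 fold change was 0.60 (95% confidence interval 0.00 to 1.20, adjusted p = 1). In labelled 5 the same gene was at -0.02 (-0.69 to 0.66). The fold change of labelled 5 over steady state differed between genotypes by -0.60 (-1.48 to 0.29), and with the culture as a block by -0.59 (-1.13 to -0.04), with an adjusted p of 1 in both fits.

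In a few other places the genotypes did not overlap, though edgeR called none. The share of all genes without overlap was not counted, so these gaps are description only, as are those given above. In labelled 50 cdt1 had 46.5, 43.4 and 44.4 CPM in the knockout, against 50.0, 53.6 and 59.6 CPM in WT, with no overlap and a log2 fold change of -0.26 (SE 0.27). In labelled 105 cdt2 had 49.3, 45.04 and 45.3 CPM in the knockout, against 40.3, 42.3 and 38.8 CPM in WT, again without overlap, at 0.24 (SE 0.24). nrm1 had the narrowest intervals, between -0.50 and 0.73 over the 6 comparisons, and cdc22 the widest, between -1.03 and 0.99. The difference between genotypes in labelled 5 over labelled 125 was called for 0 of 8 members and 0% of all genes, as was that in labelled 5 over steady state. At an unadjusted p below 0.05 edgeR had 17 and 19 genes, DESeq2 called 0 in either, and no member had an unadjusted p below 0.05 in either without the block.

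**Figure D4:**
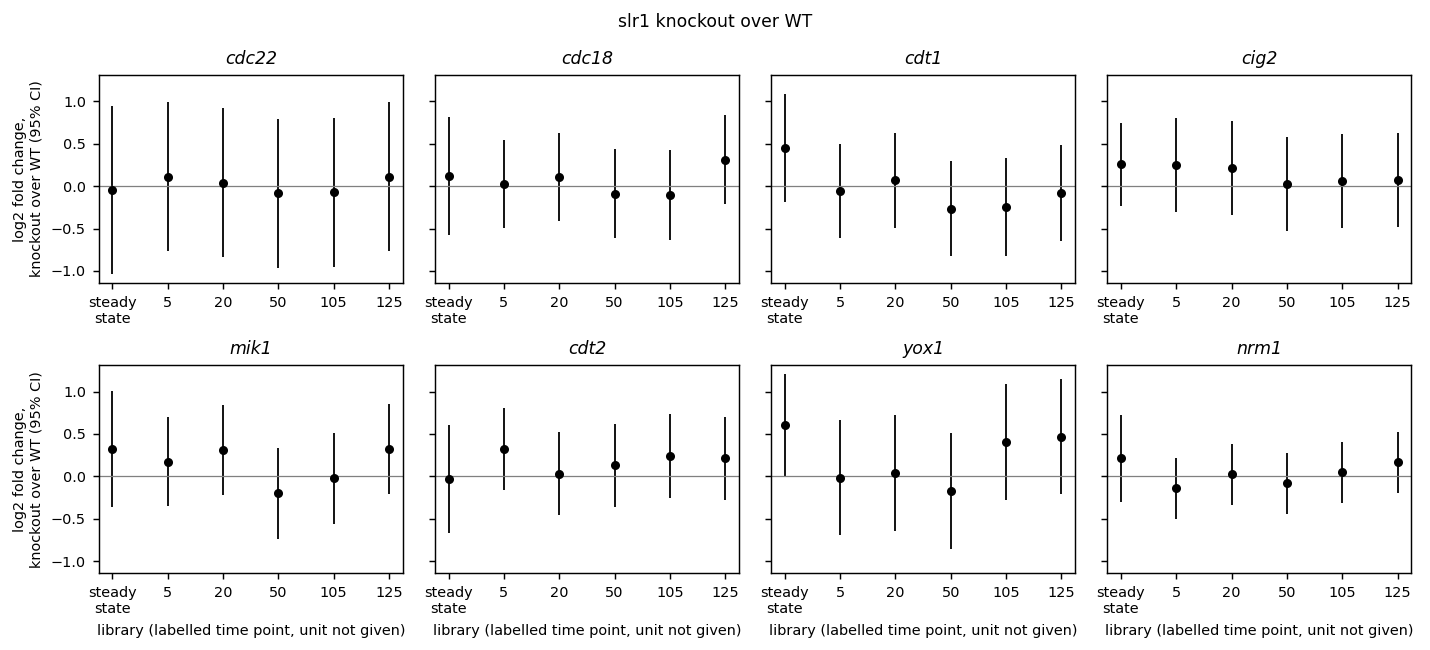
Log2 fold change of each member in the slr1 knockout over WT, at steady state and at the 5 labelled time points, with 95% confidence intervals. The values lay between -0.26 and 0.60, and the interval of yox1 at steady state, 0.00 to 1.20, was the one that did not clearly span 0.

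Cultures differed more than genotypes did for cdc22. Its geometric mean over the 6 libraries of a culture was 446 CPM in WT culture 3 and 1123 CPM in WT culture 2, a 2.52-fold spread, against 1.26-fold for cdt1 and 1.35-fold for nrm1. WT culture 3 was the lowest culture for cdc22, cdc18, cdt1, cig2, mik1 and nrm1. At steady state, set B over set A with genotype in the fit gave cdc22 a log2 value of -1.02 (SE 0.36, adjusted p = 0.0941), cdc18 -0.50 (SE 0.28, adjusted p = 0.249) and yox1 0.43 (SE 0.23, adjusted p = 0.232). edgeR called 0 of 8 members, where 12.9% of all genes were called. At an unadjusted p below 0.05 it had 1 member, beside 1614 of all 5371 genes. DESeq2 called 1 member, beside 10.5% of all genes. Within set B, cdc22 at steady state was higher in the knockout than in WT (0.97, adjusted p = 0.00787), against -0.04 over all cultures, and this within-set value rests on the single library of WT culture 3.

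The members' deviations from their group means over the 36 libraries describe how they varied from library to library. Pearson's r was between -0.44 and 0.79 over the 28 pairs, with a median of 0.39 and 22 pairs above 0. cdc22 and cig2 had the highest value, 0.79, followed by cdc18 with cig2, 0.70, and cdc22 with cdc18, 0.68. yox1 was negative with cdc22 (-0.44), cig2 (-0.43), cdt1 (-0.36) and cdc18 (-0.31), and positive with cdt2 (0.51). Libraries of 1 culture share their cells and shares of 1 total are not free to vary alone, so these are descriptions with no test.

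Across the 12 group means, the profile of each member was compared with the mean profile of the 8. mik1 (r = 0.94), cdc18 (0.93), cig2 (0.92), cdt1 (0.89), cdt2 (0.83) and nrm1 (0.82) followed it most closely, cdc22 less so (0.70), and yox1 did not (-0.26). Each member is itself part of that mean. Among 4006 other genes with a mean of at least 10 CPM, the most alike were uds1 (0.93), are2 (0.93), ssb1 (0.92), slp1 (0.91) and set11 (0.90).

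Other genes of the pathway were read from the same fits for comparison, in lists chosen with earlier results of these data known. For all list counts in labelled 5 over steady state, 13.5% of all genes were called higher and 13.2% lower in the knockout, and 10.6% higher and 11.2% lower in WT. Of the MBF subunits and their coactivators, 2 of 5 rose in labelled 5 over steady state in the knockout (res1 by 0.86 and cdc10 by 0.71 on the log2 scale) and 3 of 5 in WT (res2 by 0.80, cdc10 by 0.75 and res1 by 0.62). The list's median was 0.71 in the knockout and 0.62 in WT. The coactivator genes rep2 (0.21 in the knockout and 0.19 in WT) and rep1 (1.10 and 0.54) did not pass. res1 was also higher in labelled 5 than in labelled 125, by 0.60 in the knockout and 0.48 in WT, and res2 by 0.91 in WT, where 2.18% of all genes were called higher in the knockout and 2.08% in WT.

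Further MBF targets and S-phase genes gave 4 of 14 higher in the knockout, with psm3 at 1.04, pol1 at 0.96 and rad21 at 0.81, and 5 of 14 in WT, with pol1 at 1.12, msh6 at 0.87 and rhp51 at 0.84. psm3 and rad21 encode cohesin subunits, and pol1 the catalytic subunit of DNA polymerase alpha. In the replication machinery, 12 of 25 were higher and 1 lower in the knockout, and 9 higher and 1 lower in WT. The highest called genes were pol2 at 0.97, mcm6 at 0.96 and mcm4 at 0.92 in the knockout, and mcm4 at 0.98, pol2 at 0.90 and mcl1 at 0.87 in WT, and sld5 was the lower one (-1.13 in the knockout and -0.82 in WT). Among other G1/S regulators, 6 of 16 were higher in the knockout, led by the phosphatase gene cdc25 at 0.93, with pcu4 at 0.81 and cig1 at 0.80. In WT 5 of 16 were higher, with cdc25 at 0.88, pas1 at 0.84 and puc1 at 0.77, and cds1, the checkpoint kinase gene, was lower at -0.77.

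Genes of other cell cycle stages were counted in the same way. Of 13 genes periodic in mitosis, 5 rose in labelled 5 over steady state in each genotype (beside 13.5% of all genes called higher in the knockout and 10.6% in WT), with slp1 at 1.02, bgs4 at 1.02 and mid1 at 0.86 in the knockout and slp1 at 1.21, klp5 at 0.96 and bgs4 at 0.85 in WT. Their summed level was 2220 to 3114 CPM in labelled 5 and 1280 to 1776 CPM at steady state in the knockout, and 2048 to 2635 and 1117 to 1546 CPM in WT. Of 8 mating and meiosis entry genes 6 could be tested, and edgeR and DESeq2 called 0. At an unadjusted p below 0.05 edgeR had 2 in the knockout and 1 in WT, beside 2240 and 2044 of all 5823 genes. mei3 and mat1-Mc had 112 and 0 counts over all libraries and were not tested. The part of these stages in the members' values was not tested. With the culture as a block the counts were 3 of 5 MBF subunit and coactivator genes, 9 of 14 other targets, 16 of 25 replication genes, 12 of 16 regulators, 11 of 13 mitotic genes and 3 of 6 mating genes called higher in the knockout. In WT these were 3 of 5, 10 of 14, 15 of 25, 13 of 16, 12 of 13 and 4 of 6, beside the 29.6% and 28.5% of all genes called higher. At steady state, knockout over WT, edgeR and DESeq2 called 0 genes of any list. At an unadjusted p below 0.05 there was 1 mating gene, where edgeR had 18 of all 5371 genes.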

How the data were processed

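RNA from slr1 knockout and WT fission yeast was sequenced as 36 libraries. The authors deposited 1 table of raw read counts per gene for each library. Per the submitters' processing notes, the tools included the aligner STAR 2.5.2a and the counter HTSeq 0.6.1p2, with Trimmomatic 0.36 and R 3.5.2. The sources used here give no build, annotation or strand setting. Counts of the 7268 S. pombe genes were kept, and human and fly genes and the 5 summary lines left out, so that library sizes are S. pombe totals (reads outside features were 3.62 to 8.49% of everything counted in a table, with the human and fly genes and summary lines included).

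Levels are counts per 1000000 S. pombe counts (CPM), scaled by TMM. Tests used edgeR 4.0.16 (glmQLFit, glmQLFTest, filterByExpr with a minimum count of 10, Benjamini-Hochberg over all genes tested, threshold 0.05), in R 4.3.3, tested on simulated data. Fits within a genotype used all 36 libraries, those between genotypes 30 labelled or 6 steady-state ones. Alternatives were DESeq2 1.42.0, no filter, human-count scaling, the culture as a block, the culture set as a covariate (between genotypes), within-set fits and leaving out each culture. The 6 libraries of a culture share its number in the labels and its cells, so the block was used as the paired fit, and leaving out cultures under the block was added after seeing the data. Replicate numbers did not pair knockout with WT cultures. All 8 members are named in every comparison. Of each list, at most 3 called genes per direction are named, plus MBF's coactivator genes, chosen after their values were seen. The 5 genes most like the members are those with the highest r. The members and lists were chosen with earlier results of these data known. Symbols, coding lengths and upstream windows came from RefSeq ASM294v3.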

Additional observations from a re-analysis of the deposited data

How the results depend on the processing

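Counts of members called moved with the block, the scaling, the culture set and single cultures, and the share of all genes called moved with them. For the fits without a culture those shares are not given here, so their member counts are description only. Labelled 5 over steady state in the knockout had 2, with 5 under the block, 0 under human scaling, 0 within set A and 4 within set B (where 0% and 43.7% of all genes were called), 0 to 2 when 1 culture was left out and 2 to 6 when it was left out of the paired fit. In WT it had 4, with 4 under the block, 0 under human scaling (where 0% of all genes were called higher), 1 within set A, 1 within set B (6.44% and 15.7% of all genes, with set B a single WT culture whose spread is taken from the other libraries), 0 to 4 with a culture left out and 3 to 4 in the paired fit. Labelled 5 over labelled 125 in the knockout had 0, with 4 under the block (37.1% of all genes) and 2 within set B (23.9%). It had 0 to 1 with a culture left out and 2 to 4 in the paired fit. In WT it had 1, with 2 by DESeq2 (11.9% of all genes), 2 with no filter (7.55%) and 0 under human scaling (0% called higher). It had 4 under the block (40%), 0 within set A (1.46%), 0 to 1 with a culture left out and 2 to 4 in the paired fit. The course in the knockout had 0, with 4 under the block (36.8% of all genes), 2 within set B (21.6%) and 2 to 4 in the paired fit without a culture. In WT it had 0, with 1 by DESeq2 (9.67% of all genes), 4 under the block (41.5%) and 1 to 6 in the paired fit without a culture. Labelled 125 over steady state in the knockout had 0, and 0 to 1 in the paired fit without a culture. Steady state, knockout over WT, had 0, with 1 within set B. With the culture set as a covariate, each of the 6 comparisons between genotypes had 0, with 3 of the 48 member values at an unadjusted p below 0.05 by edgeR (cig2 in labelled 5 and 20 and cdc18 in labelled 125). Of all 5812 genes, 140, 383 and 121 were below it in labelled 5, 20 and 125. Set B over set A had 0, with 1 by DESeq2 (10.5% of all genes) and 0 to 1 with a culture left out. The set comparison was not run within a set.

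Values that reversed were nrm1 in WT under human scaling (-0.14 over steady state and -0.43 over labelled 125, where the medians of all genes were -0.61 and -0.95, so that nrm1 stayed above them) and cdc22 at steady state, knockout over WT, within set B (0.97). Of 2136 member values under alternatives, 1967 kept their direction or stayed short of the threshold (220 of them with a change of sign), 124 passed it newly, 42 no longer passed it and 3 reversed. The cause was not tested.

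Over all genes, the block raised the calls of labelled 5 over steady state to 3148 in the knockout and 3080 in WT, against 1554 and 1268 without it, and those of labelled 5 over labelled 125 to 2162 and 2332, against 494 and 510. For labelled 125 over steady state the counts were 1382 and 780 with the block, against 70 and 33, and for the course 2145 and 2415, against 303 and 321. Human scaling gave 215 and 626 genes for labelled 5 over steady state. For labelled 5 over labelled 125 in WT it gave 1383. Counts were lowest for cdt1, mik1, cdt2 and yox1, at medians of 115.5 to 160.5 a library, and what depth does to their tests was not tested. Steady-state libraries of set B were the shallowest, at 921427 to 1503133 counts.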
